A study of Mus musculus with 18 samples.

Results

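RNA of the cerebellum was compared between B6J.*Gtpbp1*-/- mice and B6J mice across the whole transcriptome, in 6 of the 18 libraries of the study. The members were taken by library title: 3 RNA libraries of the *Gtpbp1* mutant and 3 of the wild type. Every mouse was of the C57BL/6J (B6J) strain, which itself carries a mutation in *n-Tr20* that impairs processing of an arginine tRNA reading AGA codons, so that both groups share this tRNA defect. The B6J.*Gtpbp1*-/- mice are congenic and homozygous for an allele in which coding exons of the gene were replaced by a PGK-Neo cassette, and the B6J mice are wild type at *Gtpbp1*. Cerebella were collected at 3 weeks of age from mice of both sexes, which are separate animals, and sequenced from poly(A) RNA with a kit that does not keep the strand. The other libraries of the study hold RNA of B6J-*Gtpbp2*-/- mice, which are homozygous for the *nmf205* point mutation, and ribosome footprints of all 3 genotypes. The comparison asks which transcripts and which classes of genes differ in the cerebellum when GTPBP1 is lost, beyond the known targets of the transcription factor ATF4.

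GTPBP1 is a GTPase that acts on ribosomes stalled during elongation, and it is related to GTPBP2. Stalled ribosomes can activate the kinase GCN2, which phosphorylates eIF2α and thereby favours translation of ATF4, a regulator of genes for amino acid supply. The granule cell is by far the most numerous neuron of the cerebellum, while microglia, astrocytes and Bergmann glia are the cells that respond when neurons are stressed or die.

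The B6J libraries held 49090501, 50301391 and 52114400 estimated counts in replicates 1, 2 and 3. The B6J.*Gtpbp1*-/- libraries held 44243134, 49294194 and 37794598. At least 5 counts were found for 23557, 23839 and 23575 genes in B6J and for 24829, 25340 and 23871 genes in the mutant, so each mutant library detected more genes than any B6J library. The 10 most abundant genes took 5.94%, 5.49% and 6.05% of the counts in B6J and a smaller share, 4.61%, 4.90% and 4.56%, in the mutant. The first principal component of the log2 counts scaled to library size (CPM) carried 37.7% of the variance and separated the genotypes, while the second, with 29.2%, set B6J replicate 1 (86.4) apart from B6J replicate 3 (-83.3). Counts of the Y-linked gene *Ddx3y* marked B6J replicate 2 and mutant replicates 1 and 2 as male, so the groups were not balanced for sex.

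*Gtpbp1* itself, on chr15:79690845-79721479 of GRCm38, was read at 70.4, 76.4 and 66.2 CPM in the 3 B6J libraries and at 43.4, 41.1 and 43.4 CPM in the 3 mutant libraries. All 3 mutant libraries lay below all 3 B6J libraries, as the labels state. The mean fell from 71.0 ± 5.13 to 42.7 ± 1.32 CPM (SD, n = 3), a log2 fold change of -0.73 (SE 0.08, adjusted p = 5.94e-05 with edgeR's quasi-likelihood test and Benjamini-Hochberg adjustment). RNA assigned to the gene was still counted: the main coding transcript stood at 31.3, 34.6 and 28.6 TPM in B6J and at 21.0, 19.95 and 20.9 TPM in the mutant. A transcript annotated as a retained intron was higher in TPM, at 7.83, 1.30 and 3.64 in B6J and 10.4, 9.49 and 12.8 in the mutant, but its estimated counts overlapped (63.2, 10.3 and 32.3 against 51.8, 54.7 and 53.0). Footprints of the *Gtpbp1* gene as a whole had a log2 fold change of -1.57. With an offset for transcript length, and with limma on TPM, the log2 fold change of the gene was -0.31 and -0.14 and not past the threshold. The paralogue *Gtpbp2* rose by 0.34 on the log2 scale (85.2, 72.6 and 87.4 CPM against 108, 99.2 and 103 CPM, edgeR adjusted p = 0.0154), a call that ended without B6J replicate 2 or without mutant replicate 1 (highest adjusted p = 0.066).

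Loss of GTPBP1 was accompanied by changes in many gene classes. Most listed genes of the interferon response, microglia and cytosolic tRNA synthetases rose. Most listed genes of sterol synthesis, oxidative phosphorylation, the mitochondrial genome, synaptic vesicle release and granule cell identity fell. The medians of these lists kept their sign under every alternative. Of 24577 genes tested with edgeR's quasi-likelihood test, 3398 (13.8%) passed a Benjamini-Hochberg adjusted p of 0.05, of which 1449 (5.9% of those tested) were higher and 1949 (7.93%) lower in the mutant. Among 17050 protein-coding genes 3131 passed (18.4%), 1296 of them higher (7.6%) and 1835 lower (10.8%). These shares are the ground against which the counts of each list stand, since no set test was made. They are averages over genes of all levels. The share of protein-coding genes that fell was 0.557% in the lowest quintile of TPM and 25.3% in the highest. No list was set against genes of like level, so falls in lists of abundant genes stand out less than these shares make it seem. The genes that rose changed more, with a median log2 fold change of 0.73, than the genes that fell, with a median of -0.47. At least a doubling was seen for 548 genes that rose, and at least a halving for 199 genes that fell. Changes under 0.5 on the log2 scale made up 1544 of the 3398 calls (45.4%). The values of the groups did not overlap for 3378 of the 3398, against 32.0% of all genes tested.

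The split between directions depended on the scaling. It was 42.6% higher with the TMM factors used here, 54.9% higher with upper quartile factors (1837 higher, 1512 lower) and 75.2% higher with limma on log2(TPM + 0.5) (1621 higher, 535 lower), which moved the median of all genes up by 0.15 on the log2 scale. Mutant replicate 2 carried more of the calls than any other library: without it 1890 genes passed, 726 higher and 1164 lower, and 1872 of them were among the 3398. The number of genes that rose was 955 without B6J replicate 1 and 951 without mutant replicate 3. With sex as a covariate 929 genes rose and 1372 fell. P-values here measure the spread between these 6 mice.

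The genes that fell were more abundant, richer in GC and poorer in AGA codons than the rest, as the plot of calls by quintiles of each property shows. These descriptions were chosen after the values were seen; 9 properties were examined (gene type, chromosome, mean TPM, AGA share, number of codons, transcript length, GC content, 3′ UTR length and gene span), the codon and transcript properties for 16934 of the 17050 protein-coding genes (99.3%). The median TPM was 51.7 for genes that fell, 13.3 for genes that rose and 12.9 for those not past the threshold. In the quintile of genes with the highest TPM 25.3% fell and 6.86% rose, whereas in the lowest quintile 0.557% fell and 4.52% rose. Abundant genes also carry more counts, and the part of depth in this gradient was not tested. By chromosome the share that fell ran from 5.05% (chromosome 13) to 11.5% (chromosome 19) and the share that rose from 3.85% (chromosome 9) to 8.12% (chromosome 19), apart from the mitochondrial genome, where 12 of 29 genes fell, and the Y chromosome with few genes. Protein-coding genes made up most calls, while 1.89% of lincRNA genes fell and 2.48% rose.

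GC content of the transcript had a median of 54.0% in genes that fell, 48.7% in genes that rose and 50.02% in the others. From the lowest to the highest quintile of GC the share that fell was 4.52%, 7.44%, 9.51%, 12.6% and 19.7%, while the share that rose went from 9.86% to 5.26%. The median log2 fold change went from 0.11 in the lowest quintile to -0.11 in the highest, and from 0.21 to 0.07 with limma on TPM, so the order of the quintiles held while the sign of the highest did not. AGA made up a median of 0.703% of the codons in genes that fell, 1.15% in genes that rose and 1.09% in the others. The share that fell was 17.2% in the quintile with the fewest AGA codons and 5.99% in the quintile with the most. GC and AGA move together, since AGA is an AT-rich arginine codon: within each quintile of GC the genes with fewer AGA codons fell more often, 5.20% against 3.84% in the lowest GC quintile and 21.4% against 17.9% in the highest. Long genes rose more often, with 10.2% of the quintile with the most codons against 5.46% of that with the fewest, and 10.6% against 4.96% for transcript length. Genes with the longest 3′ UTRs rose somewhat more often (8.92%) than those with the shortest (5.76%). By gene span 5.07% of the shortest and 8.42% of the longest genes rose, and 12.9% and 11.3% fell.

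**Figure D1:**
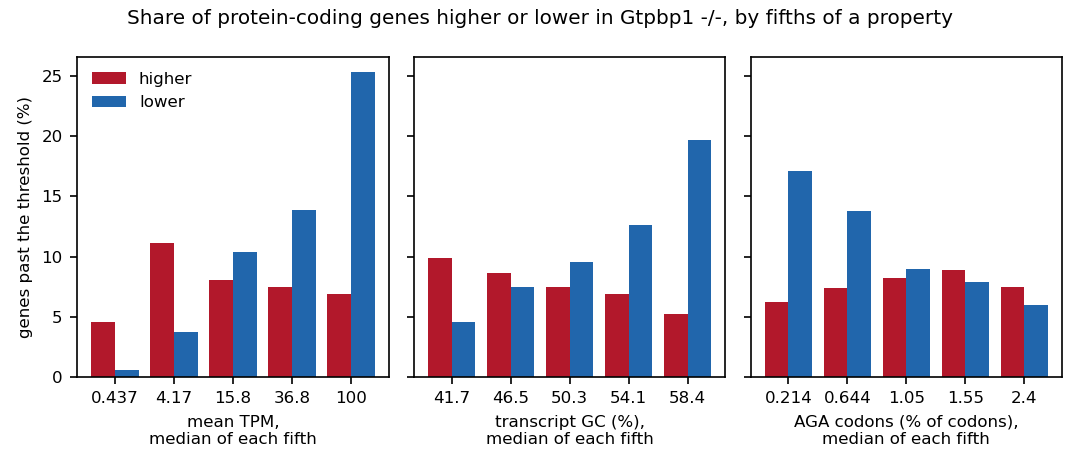
Percent of protein-coding genes higher (red) or lower (blue) in B6J.*Gtpbp1*-/- cerebellar RNA past an adjusted p of 0.05, in quintiles of genes ordered by mean TPM, transcript GC content and AGA codons, each labelled with its median. The share of lower genes goes up with TPM and GC and down with AGA codons.

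The largest rises outside the list of 40 ATF4 genes described below were in genes with little RNA in B6J. *Cyb5r2*, which codes for a cytochrome b5 reductase, was at 0.0212, 0.106 and 0.0788 CPM in B6J and at 5.33, 7.55 and 7.03 CPM in the mutant, a log2 fold change of 6.54 (SE 0.39, edgeR adjusted p = 3.28e-07). *Cox6a2*, the muscle and heart form of a cytochrome c oxidase subunit, went from 0.317, 0.191 and 0.394 CPM to 7.47, 8.47 and 9.31 CPM (log2 fold change 4.79, edgeR adjusted p = 3.06e-07). In both genes each mutant library was many times above each B6J library. The others of the 10 largest rises with a mean of at least 1 CPM were *Itgax* (5.07), the mucin *Muc2* (4.72), the chemokine *Cxcl10* (4.20), the interferon-induced GTPase *Gbp10* (3.99), *Igfbp1* (3.66), *Cass4* (3.52), the vesicular nucleotide transporter *Slc17a9* (3.36) and *Fut1* (3.34). *Gbp10* has close copies in its gene cluster, and its call ended without B6J replicate 2 or mutant replicates 2 or 3 (highest edgeR adjusted p over the 6 left-out libraries 0.109). *Fut1* was not called with the length offset (1.56) or limma on TPM (1.09), nor *Gbp10* with the length offset or with sex as a covariate. No count at all was found in B6J for 39 of the genes that rose.

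Among the 10 largest falls, *Gm21541* and *Gdf1* had no count in any mutant library. *Gm21541* held 228, 248 and 143 counts in B6J and was at least 197-fold lower in the mutant, taking a floor of 3 counts over the group. *Gdf1* held 60, 125 and 171 counts and was at least 111-fold lower, but it shares a transcript region with *Cers1*, a ceramide synthase that fell by 0.48 on the log2 scale, so the division of reads between them is uncertain. *Gm21541*, *Gm10600* (-4.72) and *Gm2163* (-2.27) are predicted genes, and *Fam177a* (-2.46) has a near-identical copy, so these too are uncertain. The 3 predicted genes lie near each other on chromosome 4, with starts at 41903610, 42240639 and 42466752. They may therefore not be separate changes, and a difference of that stretch between the mice was not tested. *Gm21541* and *Gdf1* were not called without any 1 of the B6J replicates, as too few libraries then held enough counts, nor *Gdf1* with all 9 RNA libraries. The call of *Fam177a* ended with all 9 too, without the filter on low counts, with sex as a covariate and without B6J replicate 3 or without any of the mutant replicates (highest edgeR adjusted p 0.123).

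The other large falls were in genes of known type. *Pappa*, a metalloprotease that cleaves IGF-binding proteins, was read at 12.8, 5.36 and 12.9 CPM in B6J and 0.842, 1.88 and 1.81 CPM in the mutant (log2 fold change -2.77, SE 0.42, edgeR adjusted p = 0.0031). B6J replicate 2 was the lowest of the controls and still above every mutant library. *Vwa7* fell by 2.39, from 13.2 ± 2.204 to 2.50 ± 0.468 CPM (edgeR adjusted p = 4.7e-06), and the calcium-binding protein gene *Cabp2* by 2.39. *Stap2*, an adaptor protein gene, fell by 2.31, and the testis kinase gene *Tssk5* by 2.81. By absolute level, the genes that lost most CPM were *mt-Co1*, *mt-Nd4*, *mt-Cytb*, *Mbp* and *mt-Nd1*, and those that gained most were *Macf1*, a linker of microtubules and actin (776, 862 and 631 CPM against 1013, 1060.0 and 1253 CPM), *Sparc*, *Hspa9*, *Nars* and the histone variant gene *H3f3b* (484, 476 and 629.6 CPM against 825, 775 and 794 CPM). *Mbp* was not called with limma on TPM, with sex as a covariate or without B6J replicate 1 or mutant replicates 2 or 3 (highest edgeR adjusted p 0.0726), nor *Sparc* with the length offset, with sex as a covariate or without B6J replicates 1 or 2 or mutant replicates 1 or 2 (highest edgeR adjusted p 0.205).

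Of 40 genes known as ATF4 targets or named by the study as part of that response, 39 rose and 0 fell, 0 also under every alternative. Several were picked from these same samples, so their direction is no independent evidence. They were left out of the ranking of the largest changes, and where they are members of other lists they are counted there and named. The study used a larger published set of ATF4 targets. Genes outside the 40 were not checked against that set and may belong to it. Of the 20 cytosolic tRNA synthetases, which charge tRNAs with amino acids, 14 rose and 0 fell (median log2 fold change 0.97, 0.88 to 1.11 over the alternatives), against a median of 0.03 over all genes. DESeq2 called 1 of the 20 lower. *Cars*, for cysteine, was at 45.6, 46.0 and 46.8 CPM in B6J and 122.95, 132 and 130.3 CPM in the mutant (log2 fold change 1.48, SE 0.07, edgeR adjusted p = 5.73e-08). *Yars*, for tyrosine, was at 104, 105 and 107 CPM and 259.9, 252 and 276 CPM (log2 fold change 1.32, edgeR adjusted p = 1.88e-07). In both, every mutant library was far above every B6J library. The synthetase for arginine, *Rars*, rose by only 0.34 (edgeR adjusted p = 0.0273), the smallest of the 14 changes. The summed level of the list was 1307, 1271 and 1309 TPM in B6J and 2606, 2687 and 2909 TPM in the mutant. Several of these synthetases are described as ATF4 targets in other cells, and their rise was not separated from that of the ATF4 list. Of the 17 mitochondrial synthetases *Mars2* (0.44) and *Ears2* (0.55) rose, neither call held with the length offset, with limma on TPM or without B6J replicate 1 or mutant replicates 2 or 3, and the median was 0.02, crossing 0 under the length offset (-0.02).

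Amino acid transporters rose more often than they fell. Of 30 tested, 12 rose, 3 fell and the median was 0.36. The share of falls was near the 10.8% of all protein-coding genes, whereas only 7.6% of those genes rose. Falls numbered 1 without B6J replicate 1 or with the length offset. *Slc1a4*, a carrier of alanine, serine and cysteine, was at 43.7, 37.5 and 37.8 CPM in B6J and 120.1, 125 and 144 CPM in the mutant (log2 fold change 1.71, SE 0.09, edgeR adjusted p = 1.73e-07), with no overlap. The subunits of the heterodimeric carrier of large neutral amino acids rose together, *Slc7a5* by 1.97 and *Slc3a2* by 1.34. *Slc7a3*, *Slc7a11* and *Slc7a1*, which are on the ATF4 list, are among the 12. The carriers that fell were *Slc43a2* (-0.40), *Slc7a10* (-0.35) and *Slc36a1* (-0.41), none of them with limma on TPM. In serine synthesis and folate-bound one-carbon metabolism 10 of 26 rose and 3 fell, with a median of 0.12 and 0 falls with limma on TPM. *Shmt2*, *Mthfd2*, *Phgdh*, *Psph*, *Psat1* and *Aldh1l2* among them are on the ATF4 list, and the others included *Mthfd1l* (0.64), *Mtrr* (0.41) and *Tyms* (0.72). The glycine decarboxylase *Gldc* fell, from 43.9, 48.8 and 39.1 CPM to 28.0, 26.2 and 29.97 CPM (-0.65), as did *Mat2b* (-0.42) and *Aldh1l1* (-0.33).

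Among 47 translation initiation factors and their binding proteins 11 rose, 3 fell and the median was 0.08. With limma on TPM 18 rose, 0 fell and the median was 0.27, while with the length offset 7 rose and 1 fell. *Eif4ebp1*, which is on the ATF4 list, is among the 11. The largest change of a factor was in *Eif3c*, a core subunit of eIF3, at 185, 189.6 and 178 CPM in B6J and 362, 388 and 489.9 CPM in the mutant (log2 fold change 1.17, SE 0.11, edgeR adjusted p = 1.18e-05). *Eif2s2*, the β subunit of eIF2, rose by 0.89. Those that fell were the helicase *Eif4a1* (-0.36), *Eif2d* (-0.37) and *Eif1b* (-0.29). Without B6J replicate 1 or mutant replicate 2, 6 factors rose, without B6J replicate 2 or mutant replicate 3, 7 rose, and without B6J replicate 2 or any of the mutant replicates 1 fell. Elongation and termination factors, 20 in number, had a median of 0.00: the release factor *Etf1* (0.45) and *Eef1e1* (0.55) rose, and *Eef1a2*, the elongation factor form of mature neurons, fell from 706, 714 and 677 CPM to 498, 471 and 479 CPM (-0.53, edgeR adjusted p = 0.000555), as did the mitochondrial *Tufm* (-0.35). *Tufm* was not called with the length offset or limma on TPM or without B6J replicate 2 or mutant replicate 1, and *Eef1e1* not with the length offset. Of 24 genes of ribosome rescue and quality control 4 rose (*Ufd1* 0.49, *N4bp2* 0.43, *Gtpbp2* 0.34, *Abce1* 0.28) and *Edf1*, which binds collided ribosomes, fell by 0.46 (not called with limma on TPM, nor *N4bp2*), with 2 genes rising without B6J replicate 2 or mutant replicate 2.

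Of 83 cytosolic ribosomal protein genes 4 rose, 4 fell and the median was 0.03, and the largest change was in *Rpl5* (38.2, 44.2 and 42.3 CPM against 66.0, 67.6 and 69.8 CPM, log2 fold change 0.71, edgeR adjusted p = 8.9e-05). Counts for this family are uncertain because of its many processed pseudogenes, and they depend on scaling: with limma on TPM 27 rose and 0 fell, and the median was 0.25. Without B6J replicate 1 the list had 1 rise and 2 falls, and rises numbered 2 without mutant replicate 1 and 1 without mutant replicate 2. Of 47 proteasome subunit genes 4 rose and 1 fell, with a median of 0.04. With limma on TPM 9 rose, 0 fell and the median was 0.22, and with the length offset 1 rose. Only 1 rose without B6J replicates 1 or 2 or mutant replicates 1 or 3, and 0 without mutant replicate 2, and the fall of *Psmb7* was not called with upper quartile factors, sex as a covariate or without any 1 of the 6 libraries (highest edgeR adjusted p 0.157). The immunoproteasome subunit *Psmb8* was among those that rose, at 1.27, 1.99 and 1.91 CPM and 2.98, 3.52 and 3.70 CPM. Its call ended with limma on TPM, with the length offset and with sex as a covariate. Genes of nonsense-mediated decay (21 tested, median 0.02) were led by non-coding transcripts that this pathway removes: *Snhg1* went from 12.3, 13.2 and 15.5 CPM to 27.8, 27.9 and 29.7 CPM (1.05, edgeR adjusted p = 4.26e-05), *Snhg12* rose by 0.60 and *Gas5* by 0.37, while the factor *Upf3a* (-0.33) was lower by a call that held under 5 of the 16 alternatives. *Snhg1* alone held its call without B6J replicate 2. The 17 SR splicing factors and their kinases had a median of -0.03 (0.19 with limma on TPM), with *Tra2b* (0.29) higher and *Clk3* (-0.33) and *Srsf2* (-0.30) lower, by calls that held under 10, 7 and 5 of the 16 alternatives.

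Of 24 chaperones and sensors of the endoplasmic reticulum, *Herpud1*, a component of its degradation machinery, rose from 56.0, 61.2 and 57.6 CPM to 143, 142 and 159 CPM (log2 fold change 1.35, SE 0.08, edgeR adjusted p = 2.61e-07). *Atf6* (0.40) also rose and *Calr* (-0.34) fell, by calls that held under 6 and 4 of the 16 alternatives. The median of these 24 was -0.14, and 0.05 with limma on TPM. Of 17 heat shock genes the mitochondrial chaperone *Hspa9* rose, at 235, 245 and 246 CPM in B6J and 513, 539 and 611 CPM in the mutant (1.20, edgeR adjusted p = 1.95e-06). *Hsp90aa1* (-0.33) and *Hspa1a* (-0.70, which has a near-identical copy) were lower, by calls that held under 6 and 5 of the 16, and the median of the 17 was -0.17 (0.04 with limma on TPM). Of 22 genes of the NRF2 and glutathione response 4 rose, *Chac1*, *Slc7a11* and *Cth*, which are on the ATF4 list as well, and the heme oxygenase *Hmox1* (1.45), with a median of -0.03 (0.08 with limma on TPM). The 36 genes of the mTOR pathway had a median of -0.08 (0.14 with limma on TPM). *Sesn2* and *Eif4ebp1*, both on the ATF4 list, and *Deptor* (0.64) rose, while the related *Sesn1* fell, from 101, 109 and 105 CPM to 68.9, 71.6 and 72.8 CPM (-0.56, edgeR adjusted p = 0.000151). *Akt2* (-0.36), *Lamtor5* (-0.32) and *Rragd* (-0.29) were also lower, so the share of falls in this list was near the 10.8% of all protein-coding genes, with 1 fall with limma on TPM, the number being 2 without mutant replicates 1 or 2 and 8 without B6J replicate 3. In autophagy 1 of 33 genes rose, the receptor *Sqstm1* (215, 224 and 225 CPM against 304, 294 and 321 CPM, 0.47, edgeR adjusted p = 0.00107), and 8 fell, led by *Gabarapl2* (-0.47) and *Map1lc3a* (-0.56). Without B6J replicate 2 or mutant replicates 1 or 2 falls in this list numbered 5 and with limma on TPM 1, and the median of -0.08 became 0.08 with limma on TPM.

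The interferon response was among the lists with the highest median. Type I interferon acts through receptors on the cell surface to induce antiviral genes. Of 19 listed genes 17 rose, 1 fell and the median was 1.34 (1.26 to 1.47 over the alternatives). *Irf7*, the regulator that amplifies the response, was at 2.41, 2.84 and 2.84 CPM in B6J and 8.49, 14.8 and 11.8 CPM in the mutant (log2 fold change 2.12, SE 0.21, edgeR adjusted p = 2.69e-05). Every mutant library was well above the highest B6J library, though with protein-coding transcripts alone the gene was not called (2.46). Among the others that rose were the antiviral effectors *Mx1* (2.82), *Oasl2* (2.205), *Rsad2* (2.12) and *Ifit3* (2.01, which has near-identical copies), the ubiquitin-like *Isg15* (1.29), the MHC class I genes *H2-K1* (0.77) and *B2m* (0.72), and the transcription factor *Irf9* (0.68). *Stat2*, a transducer of the interferon signal, fell, from 74.5, 77.5 and 80.3 CPM to 59.5, 62.3 and 58.0 CPM (-0.37, edgeR adjusted p = 0.00457), a fall not called with the length offset (-0.28) or limma on TPM (-0.10), and *H2-D1* (0.07, edgeR adjusted p = 0.667) did not pass. The summed level of the list was 449, 483 and 449.8 TPM in B6J and 785, 902 and 834 TPM in the mutant. The most abundant member was *B2m* (254 TPM on average).

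Since most of these members rose, the 250 bases before each gene's start were searched for the core letters of the interferon-stimulated response element. These are GAAANNGAA and the reverse complement TTCNNTTTC. The motifs were chosen after the list counts had been seen. RefSeq gave a window on GRCm38.p6 for 16 of the 19 members. The letters were found in 8 of the 16, *B2m*, *Bst2*, *Ifit1*, *Ifit3*, *Isg15*, *Oas1a*, *Rsad2* and *Stat2*, against 1169 of 14963 tested genes with a window (7.81%) and 7.13% of all windows. The list was made of known interferon genes, so this share does not depend on the RNA values and says nothing about these mice. *Stat2*, which holds the letters, fell. Stretches with several matches are shown for 4 genes that rose, with the matched letters in capitals and 20 bases on each side where the window allows. A match describes these letters and is not a measured binding site. They lie at chr19:34640760-34640833 on the + strand (*Ifit1*), chr4:156200856-156200916 on the - strand (*Isg15*), chr8:71537568-71537622 on the - strand (*Bst2*) and chr5:120907526-120907565 on the - strand (*Oas1a*), all upstream of the gene, read 5′ to 3′ in its direction.
Ifit1: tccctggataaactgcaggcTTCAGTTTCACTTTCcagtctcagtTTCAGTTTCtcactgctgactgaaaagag
Isg15: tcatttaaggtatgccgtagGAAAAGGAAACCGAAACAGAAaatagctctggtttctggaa
Bst2: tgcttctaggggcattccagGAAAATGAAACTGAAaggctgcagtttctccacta
Oas1a: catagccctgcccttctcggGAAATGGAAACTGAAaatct

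Microglial RNA was higher in every mutant library. Of 15 microglial markers 13 rose and 0 fell, 0 also under every alternative, with a median of 1.30. Their summed level was 226, 203 and 237 TPM in B6J and 606, 500.5 and 527 TPM in the mutant. No tested marker of this or any other cell type list was at 0 in all libraries. In bulk tissue more cells of a type and more RNA per cell cannot be told apart, nor can fewer cells and less RNA. *C1qa*, a subunit of the complement protein C1q that microglia make, was at 10.5, 10.002 and 10.6 CPM in B6J and 28.8, 24.6 and 27.2 CPM in the mutant (log2 fold change 1.37, SE 0.11, edgeR adjusted p = 3.45e-06), and *C1qb* was at 12.1, 11.9 and 13.3 CPM and 32.5, 29.4 and 30.2 CPM (1.30, edgeR adjusted p = 3.53e-06). Every mutant value lay far above every B6J value. The receptor genes *Trem2* (1.38), *Csf1r* (0.77) and *Cx3cr1* (1.05) rose as well. The 2 that did not pass were *P2ry12* (0.32, edgeR adjusted p = 0.254) and *Tmem119* (0.28, edgeR adjusted p = 0.43), both markers of resting microglia.

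Of 11 markers of activated microglia 9 rose and 0 fell, 0 also under every alternative, with a median of 2.12. *Lpl*, a lipoprotein lipase, was at 3.41, 3.33 and 3.35 CPM in B6J and 16.5, 13.2 and 14.1 CPM in the mutant (log2 fold change 2.12, SE 0.15, edgeR adjusted p = 1.79e-06). *Cst7*, a cystatin hardly seen in healthy brain, was at 0, 0.0212 and 0.0986 CPM and 1.73, 1.61 and 1.84 CPM (5.31, edgeR adjusted p = 0.000155), close to absent in B6J and present in all 3 mutants. *Itgax* (5.07), the chemokines *Ccl3* (2.68) and *Ccl4* (4.54), the phagocytic receptor *Clec7a* (2.56), *Spp1* (1.51), *Gpnmb* (1.55) and *Cd63* (0.46) also rose. The summed level, 1747, 1973 and 2140.2 TPM against 3322, 2788 and 2850.4 TPM, was mostly *Apoe* (2232 TPM), which astrocytes also make and which did not pass (0.27, edgeR adjusted p = 0.121). Lysosomal genes, 33 in number with a median of 0.00, split: the proteases *Ctss*, from 20.8, 17.7 and 21.1 CPM to 55.1, 47.9 and 44.7 CPM (1.31, edgeR adjusted p = 4.67e-06), *Ctsz* (0.61) and *Ctsd* (0.46) and the progranulin gene *Grn* (0.54) were among those that rose. *Ctsf* (-0.40), *Ppt1* (-0.31) and the proton pump subunits *Atp6v0d1* (-0.31) and *Atp6v1a* (-0.27) fell, none of these 4 with limma on TPM, where 8 rose. *Ctss* is on the microglial list too, and the part of microglia in the lysosomal and interferon lists was not tested.

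**Figure D2:**
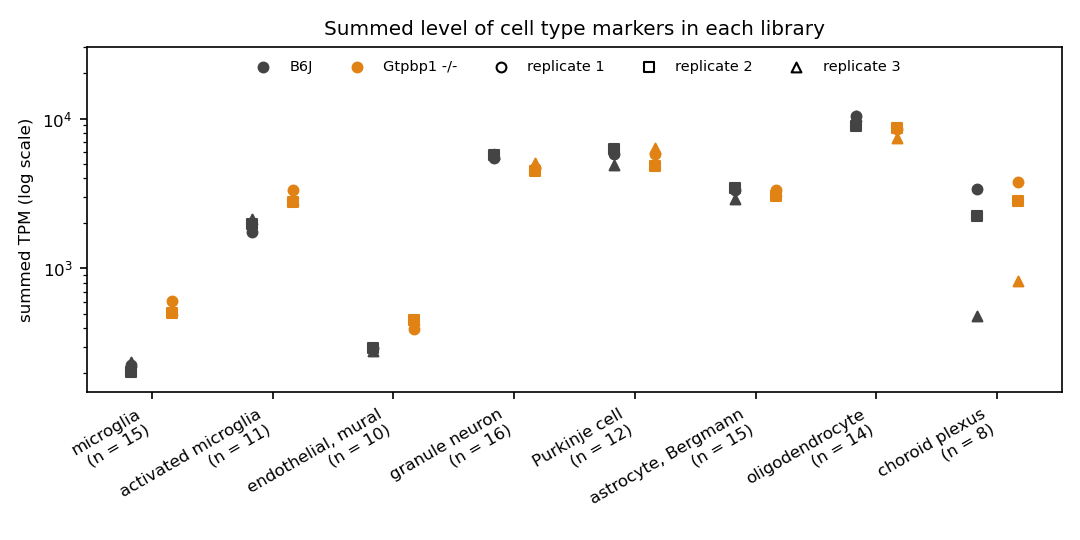
Summed TPM of 8 cell type marker lists in each library on a log scale, B6J gray and B6J.*Gtpbp1*-/- orange, with a symbol per replicate number. Microglial, activated microglial and endothelial sums are higher and granule neuron and oligodendrocyte sums lower in all 3 mutant libraries, while the choroid plexus sum varies most between replicates of a group.

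Astrocytes showed *Gfap*, the intermediate filament of reactive astrocytes, at 175, 153 and 172 CPM in B6J and 522, 361 and 394 CPM in the mutant (log2 fold change 1.35, SE 0.13, edgeR adjusted p = 3.04e-05). Mutant replicate 1 was the highest, and the lowest mutant library was still far above the highest B6J library. The other astrocyte and Bergmann glia markers did not follow: 6 of 15 fell, among them *Hopx* (-0.57, edgeR adjusted p = 0.000331) and the glutamate transporter *Slc1a3* (-0.45, edgeR adjusted p = 0.00911), which takes up glutamate around synapses. Falls in the list numbered 3 without B6J replicate 1, 1 without B6J replicate 2 and 2 without mutant replicates 2 or 3, and the median of -0.10 became 0.05 with limma on TPM. Their summed level overlapped, at 3342, 3413 and 2909 TPM and 3314, 3039 and 3296 TPM, with *Slc1a3* the most abundant (849 TPM).

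Of 14 oligodendrocyte markers 8 fell and 0 rose, 0 also under every alternative (median -0.30). The myelin gene *Mobp* was at 1361, 1222 and 1422 CPM in B6J and 887, 923 and 857 CPM in the mutant (log2 fold change -0.59, SE 0.09, edgeR adjusted p = 0.000593), all mutants below all controls. Among the others that fell were *Cldn11* (-0.45), *Ugt8a* (-0.73), *Mog* (-0.50), *Mbp* (-0.49) and *Cnp* (-0.29). The count depended on single libraries, being 4 without B6J replicate 1 and 5 without mutant replicates 2 or 3, and it was 1 with limma on TPM. Summed levels were 10344, 8979.5 and 10316 TPM and 8488, 8645 and 7399 TPM, led by *Mbp* (3740.3 TPM). In B6J-*Gtpbp2*-/- RNA, set against the same B6J libraries, the log2 fold change of *Mobp* was -0.01, that of *Mbp* -0.05 and that of *Cldn11* 0.04, and the difference between the mutants was not tested. Of 8 precursor markers *Enpp6* alone was called (-0.37, edgeR adjusted p = 0.0446), with overlapping groups (45.6, 37.0 and 48.7 CPM and 33.0, 37.5 and 31.1 CPM) and a call that ended with upper quartile factors, limma on TPM, protein-coding transcripts alone or sex as a covariate and without B6J replicates 1 or 3 or any mutant replicate; the list summed to 243, 230.0 and 253 TPM and 261, 281 and 219 TPM, led by *Bcas1* (115 TPM).

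Endothelial and mural markers had 5 of 10 rising and 0 falling, 0 also under every alternative (median 0.35, 0.29 to 0.48 over the alternatives). The tight junction gene *Cldn5* was at 21.1, 21.8 and 24.6 CPM in B6J and 32.5, 37.97 and 30.7 CPM in the mutant (0.59, edgeR adjusted p = 0.0029). *Rgs5* (0.58), *Pdgfrb* (0.41), *Slco1a4* (0.35) and *Flt1* (0.33) also rose, and rises in the list numbered 3 without B6J replicate 1 or mutant replicate 2, 2 without mutant replicate 3 or with the length offset and 9 with upper quartile factors. The list summed to 295, 295 and 282 TPM and 392, 453 and 453 TPM, with *Rgs5* the most abundant (98.3 TPM).

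Tissue other than cerebellum was rare or variable. Choroid plexus markers, 0 of 8 past the threshold in any fit, summed to 3395, 2237 and 479 TPM in B6J and 3787, 2834 and 820.3 TPM in the mutant, so that replicate 3 was lowest in both groups; *Ttr* made up most of it (2148 TPM on average) and stood at 1658, 1077 and 228 CPM and 1625, 1194 and 334 CPM. Meninges, bone and muscle markers summed to 88.0, 83.3 and 64.1 TPM and 80.6, 106 and 91.2 TPM, led by *Dcn* (41.8 TPM), with 0 of 8 past the threshold in any fit. Forebrain neuron markers summed to 23.7, 28.5 and 21.9 TPM and 26.7, 25.5 and 31.1 TPM, led by *Prox1* (16.9 TPM), with 0 of 5 past it in any fit and *Fezf2* too low to test, and of 10 brainstem markers only 4 had counts enough to test, with *Hox* genes among those that fell short. *Th*, which Purkinje cells can also express, was called among these (7.001, 7.27 and 10.4 CPM against 26.0, 18.7 and 13.4 CPM, 1.23, edgeR adjusted p = 0.0102), though not without B6J replicate 1; the brainstem list summed to 9.84, 7.10 and 12.002 TPM and 27.1, 26.3 and 14.8 TPM, most of it *Th* (14.9 TPM). Erythrocyte genes summed to 5879.5, 3303 and 4486 TPM and 8197, 7148 and 9202 TPM, higher in all mutants, with *Hbb-bs* the most abundant (3114 TPM). *Alas2*, the first enzyme of heme synthesis in red cells, rose from 20.8, 12.9 and 17.0 CPM to 32.7, 25.1 and 38.3 CPM (0.92, edgeR adjusted p = 0.0138), a call that ended with all 9 RNA libraries and without B6J replicate 3 or mutant replicate 1; 3 of the 5 were called without B6J replicate 1, and all 5 with sex as a covariate. The part of blood, vessels or choroid plexus in other results was not tested.

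Most granule cell identity genes fell. Of 16 markers 11 fell (7 with limma on TPM), 1 rose and the median was -0.47 (-0.51 to -0.33 over the alternatives). *Gabra6*, the GABA receptor subunit that marks mature granule cells, was at 846, 835 and 971 CPM in B6J and 374, 408 and 471 CPM in the mutant (log2 fold change -1.08, SE 0.10, edgeR adjusted p = 1.6e-05). *Cbln1*, which granule cells secrete to hold their synapses on Purkinje cells, was at 787, 722 and 794 CPM and 443, 389 and 457 CPM (-0.84, edgeR adjusted p = 4.26e-05). Every mutant library lay below every B6J library by more than the spread of either group. The transcription factors *Neurod1* (-0.71), *Pax6* (-0.33), *Etv1* (-0.42) and *Zic1* (-0.32) fell too, as did *Cbln3* (-0.59), *Chn2* (-0.51), *Slc17a7* (-0.68), *Gabrd* (-0.66) and *Grin2c* (-0.53). The exception was *Calb2*, the calcium buffer calretinin, which rose from 454, 552 and 618 CPM to 831, 742 and 781 CPM (0.54, edgeR adjusted p = 0.00503) and is also made by unipolar brush cells. The list summed to 5493, 5751 and 5764 TPM and 4645, 4451 and 5023 TPM, *Calb2* itself being the most abundant (934 TPM).

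Markers of other neurons fell in part. Of 12 Purkinje cell markers *Car8* alone fell (1975, 2066 and 1929 CPM against 1378, 1375 and 1851 CPM, -0.38, edgeR adjusted p = 0.0427), with mutant replicate 3 close to the B6J values; the call ended with upper quartile factors, the length offset, limma on TPM or sex as a covariate and without B6J replicates 1 or 2 or mutant replicates 1 or 2, and falls numbered 5 without B6J replicate 3 and 2 without mutant replicate 3. Their median was -0.21 and their summed level overlapped (5824, 6220.4 and 4899.5 TPM and 5765, 4833 and 6394 TPM, led by *Pcp2* at 1533 TPM). Of 10 markers of inhibitory interneurons 5 fell, among them *Tfap2b* (-0.55), *Sorcs3* (-0.45) and *Kit* (-0.45). Falls among the 10 numbered 2 without B6J replicate 1 or mutant replicate 2, 1 without B6J replicate 2, 3 without mutant replicate 3 and 0 with limma on TPM. That list had a median of -0.39 and overlapping sums (1088, 1090.1 and 906 TPM and 1049, 867 and 906 TPM, led by *Gad1* at 407 TPM). *Eomes*, which marks unipolar brush cells, fell from 32.0, 44.1 and 45.1 CPM to 11.1, 19.4 and 17.0 CPM (-1.35, edgeR adjusted p = 0.00454), the only call among 4 markers (sums 49.7, 49.4 and 48.5 TPM and 43.4, 47.7 and 33.3 TPM, led by *Otx2* at 24.9 TPM, which choroid plexus also makes). The median of these 4 was 0.20, and -0.02 with the length offset.

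Most genes of synaptic vesicle release fell. Of 38 tested 23 fell, 1 rose and the median was -0.36 (-0.40 to -0.20 over the alternatives). Complexin 1 (*Cplx1*), which clamps the fusion machinery, was at 454, 456 and 472 CPM in B6J and 284, 258 and 246 CPM in the mutant (log2 fold change -0.81, SE 0.08, edgeR adjusted p = 3.03e-05). *Syn1*, which tethers vesicles, was at 208, 239 and 210.1 CPM and 124, 134 and 117 CPM (-0.80, edgeR adjusted p = 3.04e-05). All mutant values were below all control values in both. The falls reached from the SNARE proteins *Snap25* (-0.72) and *Vamp2* (-0.37) to the active zone scaffolds *Rims1* (-0.83) and *Rims2* (-0.54), the calcium sensors *Syt1* (-0.35), *Syt2* (-0.37) and *Syt7* (-0.34) and the priming factors *Unc13a* (-0.35) and *Unc13c* (-0.57). *Unc13b* rose (32.8, 33.0 and 25.8 CPM against 49.8, 46.5 and 42.5 CPM, 0.60, edgeR adjusted p = 0.00252). With limma on TPM 12 fell.

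Receptors on the receiving side changed in part. Of 36 glutamate receptor and auxiliary subunit genes 12 fell and 1 rose, with a median of -0.27 (-0.14 with limma on TPM, where 3 fell) and 7 falls without B6J replicate 2 or mutant replicate 2. The AMPA receptor subunit *Gria4* was at 760.2, 772 and 630.4 CPM in B6J and 404, 414 and 485 CPM in the mutant (-0.73, edgeR adjusted p = 0.000415), and *Grin2c*, the NMDA receptor subunit of mature granule cells, at 243, 233 and 231 CPM and 164, 164 and 162 CPM (-0.53, edgeR adjusted p = 0.000233). The groups were well apart in both. *Cacng3*, an auxiliary subunit of AMPA receptors, went the other way by a wide margin, from 7.06, 7.73 and 7.55 CPM to 32.2, 33.6 and 37.7 CPM (log2 fold change 2.21, SE 0.11, edgeR adjusted p = 9.25e-08). Among 24 genes of inhibitory transmission 7 fell, led by *Gabra6* and *Gabrd* (-0.66), and *Gabrg3* (0.73) and *Slc12a2* (0.25) rose, the median being -0.18 (-0.00 with limma on TPM). Falls numbered 4 with limma on TPM or without mutant replicate 2 and 11 without B6J replicate 3, and neither rise was called without B6J replicate 1 or mutant replicates 1 or 2, that of *Slc12a2* without any library.

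Ion channel genes moved in both directions. Of 85 potassium channel genes 19 fell and 9 rose (median -0.10, or 0.06 with limma on TPM, where 9 fell and 4 rose). Among the rises is *Kcnt2*, which is on the ATF4 list. *Kcnj9*, which forms G protein-gated channels, was at 129.9, 129.6 and 128 CPM in B6J and 72.4, 70.5 and 70.3 CPM in the mutant (log2 fold change -0.86, SE 0.07, edgeR adjusted p = 2.96e-06). The replicates of each genotype were within 3 CPM of each other. *Kcns2*, a silent subunit that modifies other channels, rose from 11.1, 14.8 and 14.6 CPM to 27.9, 32.6 and 36.6 CPM (1.26, edgeR adjusted p = 4.46e-05), and the background channel *Kcnk2* rose by 0.83. Falls numbered 12 without B6J replicate 2 or mutant replicate 2, and rises 5 without B6J replicate 2 and 4 without any of the mutant replicates. Of 32 sodium and calcium channel genes 8 fell and 1 rose, with a median of -0.00 (0.10 with limma on TPM, where 4 fell). *Cacna1e*, the pore of R-type calcium channels, was at 454, 486 and 463 CPM and 238, 235 and 237 CPM (-0.98, edgeR adjusted p = 2.96e-06), close to the same in all 3 mutants. The auxiliary sodium channel subunit gene *Scn2b* (-0.77) fell along with it, *Cacna2d1* (0.37) rose except with the length offset or without B6J replicate 1, and 5 falls were called without mutant replicate 2.

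**Figure D3:**
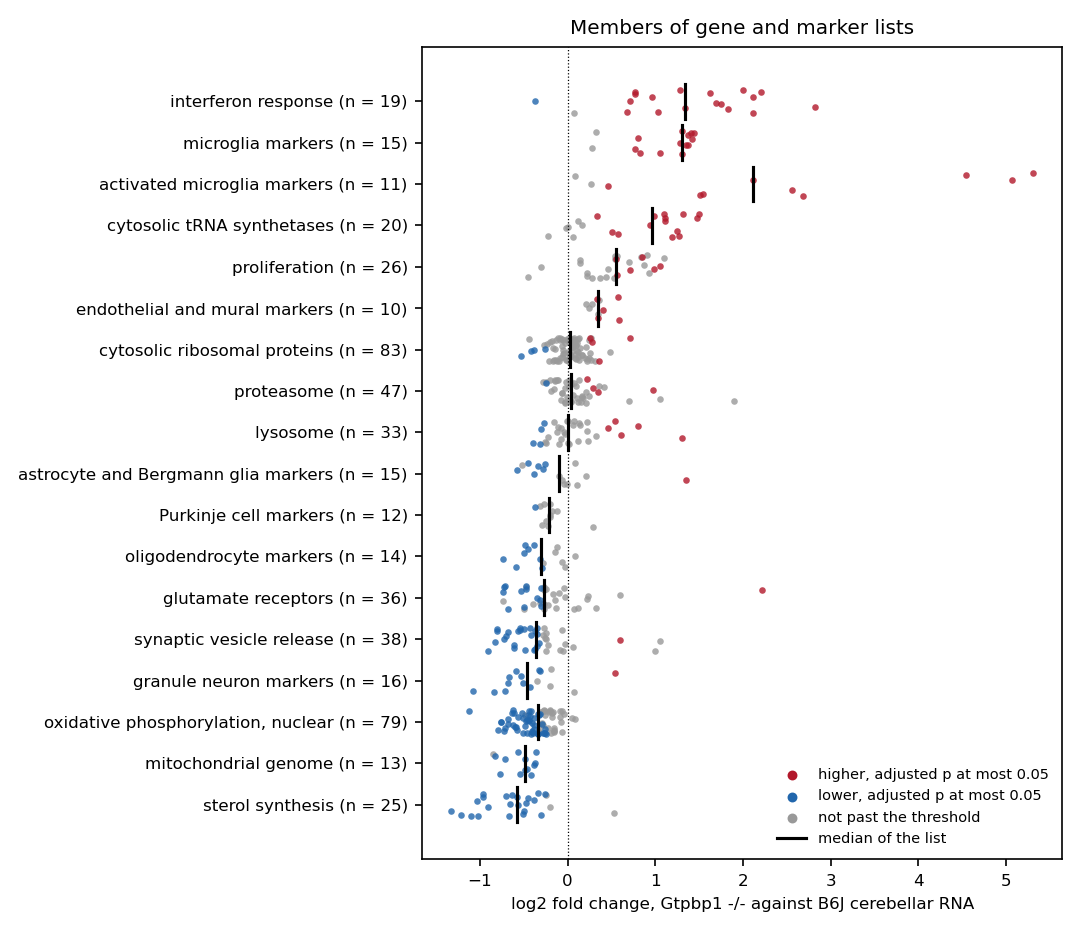
Log2 fold change of every tested member of 18 lists in B6J.*Gtpbp1*-/- against B6J cerebellar RNA, red for higher and blue for lower past an adjusted p of 0.05, gray for the others, with the list median as a black line. Interferon, microglial and tRNA synthetase genes lie mostly above 0, and sterol, mitochondrial, granule neuron and synaptic genes mostly below, while the medians of astrocyte, ribosomal protein and lysosome lists are near 0 and move with the scaling.

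Oxidative phosphorylation had the largest number of falls of any list, though not the largest share. Of 79 nuclear genes for its subunits 49 fell and 0 rose, though limma on TPM called 1 higher and 17 lower, and the median was -0.34 (-0.38 to -0.14 over the alternatives). *Cox8a*, of cytochrome c oxidase, was at 198, 198 and 204 CPM in B6J and 81.6, 90.5 and 102 CPM in the mutant (log2 fold change -1.13, SE 0.09, edgeR adjusted p = 2.65e-06). *Cox5b* of the same complex was at 98.1, 109.5 and 105 CPM and 58.3, 58.4 and 64.0 CPM (-0.79, edgeR adjusted p = 1.68e-05). Both were lower in every mutant library. The falls covered all 5 complexes, with *Ndufa4* (-0.62), *Sdhb* (-0.29), *Uqcr11* (-0.76), *Cox6b1* (-0.73) and *Atp5d* (-0.63) as examples. Mitochondrial transcripts fell as well: 12 of the 13 protein genes of the mitochondrial genome were lower (8 with limma on TPM), with a median of -0.49 (-0.53 to -0.32 over the alternatives). *mt-Nd1*, of complex I, was at 3910.4, 3762 and 4024 CPM and 2591, 2779 and 2534 CPM (-0.57, edgeR adjusted p = 0.000526), and *mt-Nd3* at 578, 571 and 638 CPM and 337, 373 and 376 CPM (-0.72, edgeR adjusted p = 0.000104). Copies of mitochondrial sequence in the nuclear genome can take some of these reads. The 77 mitochondrial ribosomal protein genes had 13 falls and 1 rise with a median of -0.11 (0.10 with limma on TPM), led by *Mrpl34* (-0.72) and *Mrps25* (-0.35). With limma on TPM 0 fell and 2 rose. The count of 13 falls was unstable, at 5 without B6J replicates 1 or 2 or mutant replicate 1, 2 without mutant replicate 2 and 4 without mutant replicate 3. When 1 library was left out, *Mrps18b* (0.49) was called higher only without B6J replicate 1.

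Sterol synthesis fell nearly throughout. The pathway makes cholesterol from acetyl-CoA and is driven by the transcription factor SREBP2, the product of *Srebf2*. Of 25 genes 22 fell and 0 rose, 0 also under every alternative, with a median of -0.58 (-0.64 to -0.40 over the alternatives, 12 falls with limma on TPM). *Idi1*, which makes the activated isoprene unit, was at 109, 116 and 119.5 CPM in B6J and 44.8, 57.0 and 46.4 CPM in the mutant (log2 fold change -1.21, SE 0.09, edgeR adjusted p = 2.94e-06). Every mutant library lay far below every B6J library. The early enzyme *Hmgcs1* (-1.04) and the middle steps *Fdps* (-0.96) and *Cyp51* (-0.97) fell by nearly as much, whereas *Insig1* (-0.26) and *Srebf2* (-0.45) fell less. Not past the threshold were, among others, *Lss* (-0.20) and *Tm7sf2* (-0.25). The list summed to 1324, 1271 and 1295 TPM in B6J and 853, 963 and 863 TPM in the mutant. Oligodendrocytes, whose markers were also lower, make much cholesterol at this age, and their part in this result was not tested.

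Sterol genes were searched in the same way for the letters TCACNCCAC of the sterol regulatory element and for GTGGNGTGA. RefSeq gave a window for 17 of the 25, and 1 of them, *Hmgcs1* (5.88%), held the letters, against 185 of 14963 tested genes with a window (1.24%). The match lies at chr13:119690194-119690242 on the + strand of GRCm38.p6, upstream of the gene, and is shown in capitals with 20 bases on each side.
Hmgcs1: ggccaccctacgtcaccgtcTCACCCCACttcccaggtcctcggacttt

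**Figure D4:**
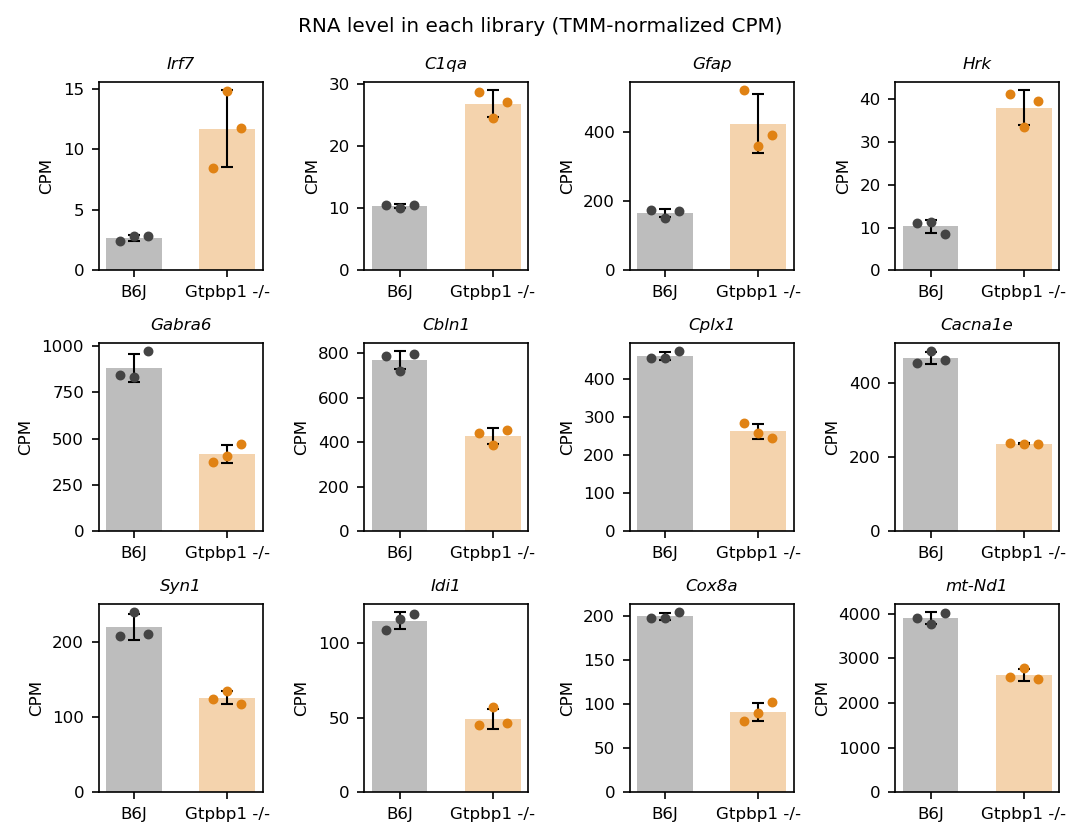
CPM of 12 genes in each library (points), with the mean (bars) and SD (error bars) of 3 B6J and 3 B6J.*Gtpbp1*-/- mice. The groups do not overlap in any of the 12.

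Some genes that promote cell death rose. Of 31 genes of apoptosis and the p53 response 6 rose and 2 fell, with a median of 0.04 (-0.01 to 0.22 over the alternatives). The BH3-only genes *Hrk*, at 11.1, 11.3 and 8.59 CPM in B6J and 41.1, 33.5 and 39.5 CPM in the mutant (log2 fold change 1.88, SE 0.13, edgeR adjusted p = 1.16e-06), and *Bbc3*, at 7.21, 8.94 and 8.28 CPM and 24.6, 17.6 and 23.3 CPM (1.42, edgeR adjusted p = 3.59e-05), code for proteins that neutralize BCL2. Mutant values exceeded all B6J values in both. A further BH3-only gene to rise was *Pmaip1* (2.22), and *Trp53* itself (0.89) with its targets *Cdkn1a* (1.87) and *Eda2r* (1.56) completed the 6. The listed p53 targets did not rise as a set: *Mdm2*, *Ccng1*, *Phlda3* and *Zmat3* were among the 23 genes that did not pass. *Bcl2l1*, which protects neurons from death, fell by 0.28 (edgeR adjusted p = 0.0199). Its call ended with limma on TPM, with sex as a covariate and without B6J replicates 1 or 2 or mutant replicate 2. *Sesn1*, a p53 target too, fell as given above. Falls in this list numbered 4 without mutant replicate 3.

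Immediate early genes, which report neuronal activity, did not move as one. Of 24 tested 4 rose and 2 fell, with a median of 0.36. The growth factor *Bdnf* was at 19.5, 23.2 and 23.5 CPM in B6J and 46.1, 52.9 and 68.6 CPM in the mutant (log2 fold change 1.34, SE 0.14, edgeR adjusted p = 6.45e-05), more in each mutant than in any control. *Ier2* (0.62), *Egr1* (0.98) and *Dusp6* (0.47) also rose, while the AP-1 genes *Jund* (47.6, 55.8 and 47.9 CPM against 18.6, 19.3 and 27.7 CPM, -1.21, edgeR adjusted p = 0.000214) and *Jun* (-0.87) fell. Rises numbered 2 without B6J replicate 1 and 1 without mutant replicate 3, and *Ier2* and *Jund* were not called with all 9 RNA libraries. Of 26 genes of proliferation, low in level, 6 rose, 20 did not pass and 0 fell (1 falling with DESeq2, with the length offset or without B6J replicate 3), with a median of 0.55. The replication helicase subunits led: *Mcm6* was at 6.32, 6.76 and 4.30 CPM and 9.89, 13.6 and 12.6 CPM (1.06, edgeR adjusted p = 0.00259), with *Mcm7* (0.56), *Mcm3* (0.85) and *Mcm5* (0.56). Rises numbered 3 without B6J replicate 2 or mutant replicate 2, and 2 without mutant replicate 3. Replication-dependent histone genes, whose mRNAs lack poly(A) tails and which share near-identical sequence, are poorly measured here: 34 of 67 were tested, *Hist1h1d* (1.497) and *Hist1h1c* (0.66) rose and *Hist3h2ba* (-1.03) fell. *Hist1h1d* and *Hist1h1c* were not called without mutant replicate 1, nor *Hist1h1c* without B6J replicate 2, nor *Hist1h1d* with limma on TPM or sex as a covariate, nor *Hist3h2ba* with all 9 RNA libraries, and the list had 4 rises without B6J replicate 3 and 2 falls without mutant replicate 3.

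Axon guidance genes, 70 of 71 with enough counts, moved in both directions, 8 higher and 16 lower (2 lower with limma on TPM), with a median of -0.05 that became 0.12 with limma on TPM. *Sema3c*, a secreted semaphorin, was at 11.6, 12.2 and 12.7 CPM in B6J and 23.4, 22.8 and 20.4 CPM in the mutant (log2 fold change 0.87, edgeR adjusted p = 0.000184), and its receptor *Nrp2* rose by 0.60. The transmembrane semaphorin *Sema6c* fell, from 25.7, 24.1 and 23.7 CPM to 12.5, 11.6 and 12.4 CPM (-1.01, edgeR adjusted p = 3.36e-05), and so did *Plxna4* (-0.78). *Sema6c* was not called with the length offset (-0.52) or limma on TPM (-0.34), nor *Plxna4* with limma on TPM (-0.59). Rises in this list numbered 5 without B6J replicate 1 or mutant replicate 2. Collagen genes, 44 in number, had 8 rises and 5 falls, a share of falls near that of all protein-coding genes, with a median of 0.31, led by *Col4a2* of the vessel wall (0.61) and *Col27a1* (-1.23). With limma on TPM 3 rose and 0 fell, and with the length offset 4 rose and 2 fell. Rises numbered 4 without B6J replicate 1, 5 without B6J replicate 2 and 3 without mutant replicate 2, and falls 3 without B6J replicate 1 and 2 without B6J replicate 2 or any of the mutant replicates. Among 23 genes of the brain matrix 2 rose and 4 fell (median -0.06, or 0.11 with limma on TPM, where 1 fell). Tenascin C (*Tnc*) fell from 59.4, 59.9 and 47.9 CPM to 13.0, 16.1 and 16.0 CPM (-1.89, edgeR adjusted p = 4.3e-07). *Cspg5* (-0.43), *Vcan* (-0.45) and *Hapln4* (-0.33) fell and *Sdc2* (0.44) and *Sparc* (0.34) rose, with 1 rise without B6J replicate 1 or mutant replicates 1 or 2. Of 57 clustered protocadherin genes, which share exons and are hard to tell apart, *Pcdhga1* (0.79) and *Pcdha11* (0.76) rose and *Pcdhac2* (-0.49) fell (*Pcdha11* not called with the length offset or limma on TPM, nor *Pcdhac2* with limma on TPM), with 1 rise without B6J replicate 2 or mutant replicates 2 or 3 and 2 falls without B6J replicate 3.

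Around the *Gtpbp1* locus, where DNA of the strain in which the allele was made could remain, 280 genes within 5 Mb were tested, of which 17 rose and 34 fell. That is 18.2%, against 16.2% of the 906 genes on chromosome 15. Apart from *Gtpbp1* itself, the calls with the smallest adjusted p were *Atf4* (0.90, edgeR adjusted p = 5.2e-05), the somatostatin receptor *Sstr3*, from 19.9, 19.7 and 27.1 CPM to 9.11, 9.71 and 10.6 CPM (-1.18, edgeR adjusted p = 0.00012), and the transcription factor *Scx*, from 5.71, 3.77 and 4.79 CPM to 1.17, 0.824 and 1.40 CPM (-2.08, edgeR adjusted p = 0.000284). The groups did not overlap in any of these 3, and the part of flanking DNA was not tested.

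Ribosome footprints of the same genotypes were set beside the RNA, although it is not stated whether RNA and footprints came from the same mice. The median footprint log2 fold change was 0.41 over genes that rose in RNA and -0.30 over genes that fell, against 0.01 over all 13902 genes with both. By class, RNA and footprint medians were -0.58 and -0.44 for sterol genes, -0.36 and -0.34 for synaptic vesicle genes, -0.47 and -0.60 for granule cell genes and 1.30 and 1.35 for microglial genes. They were -0.34 and -0.04 for nuclear genes of oxidative phosphorylation, -0.49 and 0.50 for the mitochondrial genome and -0.30 and 0.11 for oligodendrocyte genes. No difference between the assays was tested.

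Set beside B6J-*Gtpbp2*-/- RNA, for which the same 3 B6J libraries are the control, the members had these values. The log2 fold change was -1.08 and -1.02 for *Gabra6* in the *Gtpbp1* and the *Gtpbp2* mutant, 1.37 and 1.32 for *C1qa*, 2.12 and 1.65 for *Irf7*, 6.54 and 6.44 for *Cyb5r2* and -0.98 and -0.76 for *Cacna1e*. For the sterol gene *Idi1* it was -1.21 and -0.89. The predicted genes on chromosome 4 had -4.72 and 0.05 for *Gm10600* and -2.27 and -0.17 for *Gm2163*. *Gm21541*, without counts in the *Gtpbp1* mutant, had -0.68 in the *Gtpbp2* mutant. Because the controls are shared, likeness between these columns is partly built in, and no difference between the mutants was tested.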

How the data were processed

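Per the authors, paired-end reads of each RNA library were assigned to Gencode M20 transcripts with kallisto 0.42.4 with bias correction, which gave the deposited estimated counts (expected counts, unscaled) and TPM, which kallisto scales to effective transcript length and library size. The deposited footprint counts are whole reads per gene that the authors made with Bowtie2 2.2.3, HISAT2 2.1.0 and featureCounts, without scaling. Estimated counts were summed per gene and rounded. A gene was tested if 3 or more of the 6 libraries held 5 counts or more of it, with edgeR 4.0.16 (R 4.3.3; TMM, robust quasi-likelihood fit), with Benjamini-Hochberg adjustment over all genes tested and a threshold of 0.05. CPM are TMM-scaled. The counts per library limit what can be seen of genes under 1 CPM.

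The 16 alternatives used upper quartile factors, DESeq2 1.42.0, other filters, a length offset, limma 3.58.1 on log2(TPM + 0.5), all 9 RNA libraries, a replicate block, protein-coding transcripts, sex and 1 library fewer. The fit was tested on simulated data. Members, 36 gene lists and 15 marker lists were chosen with earlier results of these data known. No set test was made: lists are described by counts of calls and medians, with the shares over all genes given once. Genes were named by rule: *Gtpbp1* and *Gtpbp2*, the 10 largest rises and falls among protein-coding genes with a mean of at least 1 CPM outside the ATF4 list, the 5 largest gains and losses of CPM, the 2 members of each list with the smallest adjusted p in each direction (or the most abundant where none passed), and 3 genes within 5 Mb of *Gtpbp1*. Some genes that the rule names are not reported. Other list members were chosen after their values were seen. Figures were made with Python 3.11.15, pandas 2.3.3, numpy 2.4.6 and matplotlib 3.10.9.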

Additional observations from a re-analysis of the deposited data

How the results depend on the processing

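Of 166 named genes, 92 kept their direction and their side of the threshold under all 16 alternatives. Of the 163 past the threshold 120 held without any single library, and calls ended for 25, 26 and 15 without B6J replicates 1, 2 and 3 and for 22, 29 and 20 without mutant replicates 1, 2 and 3. The counts without B6J replicates include *Gm21541* and *Gdf1*, which were not tested there. Total calls were 2231 with the length offset (899 higher), 2156 with limma on TPM (535 lower), and 929 higher with sex as a covariate. Leaving out 1 library gave 1890 to 3798 calls, 726 to 1660 higher and 1164 to 2138 lower, the lowest without mutant replicate 2 and the highest without B6J replicate 3. Opposite signs among the 3398 calls were seen for 14 genes with the length offset, 43 with limma on TPM and 11 with protein-coding transcripts alone. Medians of 14 lists changed sign with limma on TPM. Fewer libraries lower the power, and apart from that the cause of these differences was not tested.

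The 3 named genes that reversed were all short of the threshold. The log2 fold change of *Ttr* was -0.55 with sex as a covariate and ran from -0.38 without B6J replicate 3 to 0.68 without B6J replicate 1, with -0.37 and -0.01 without mutant replicates 1 and 2. That of *Dcn* ran from -0.010 without mutant replicate 2, or -0.009 without B6J replicate 3, to 0.18 without B6J replicate 1. That of *Prox1* was 0.017 with limma on TPM, and ran from -0.22 without B6J replicate 1 to 0.0058 without B6J replicate 2. The cause was not tested.

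By gene, the calls that ended were as follows for those in the report that the rule names. With sex as a covariate: *Gbp10*, *Fam177a*, *Sparc*, *Mbp*, *Atf6*, *Calr*, *Hsp90aa1*, *Hspa1a*, *Eif2d*, *Psmb8*, *Psmb7*, *Upf3a*, *Clk3*, *Srsf2*, *Bcl2l1*, *Gabrg3*, *Slc12a2*, *Hist1h1d*, *Car8*, *Enpp6* and *Slco1a4*. With upper quartile factors: *Calr*, *Hsp90aa1*, *Hspa1a*, *Eif2d*, *Psmb7*, *Upf3a*, *Clk3*, *Srsf2*, *Car8* and *Enpp6*. With the length offset: *Gtpbp1*, *Gbp10*, *Fut1*, *Sparc*, *Slc43a2*, *Slc7a10*, *Mars2*, *Ears2*, *Atf6*, *Calr*, *Hspa1a*, *Eif4a1*, *Eef1e1*, *Tufm*, *Mrps18b*, *Mrpl34*, *Mrps25*, *Psmb8*, *Psmb7*, *Upf3a*, *Tra2b*, *Clk3*, *Srsf2*, *Gabrg3*, *Slc12a2*, *Cacna2d1*, *Sema6c*, *Pcdha11*, *Stat2*, *Car8* and *Slco1a4*. With limma on TPM: *Gtpbp1*, *Fut1*, *Mbp*, *Slc43a2*, *Slc7a10*, *Gldc*, *Mat2b*, *Mars2*, *Ears2*, *Atf6*, *Calr*, *Hsp90aa1*, *Hspa1a*, *N4bp2*, *Edf1*, *Eif4a1*, *Eif2d*, *Tufm*, *Mrpl34*, *Mrps25*, *Psmb8*, *Psmb7*, *Akt2*, *Upf3a*, *Clk3*, *Srsf2*, *Gabarapl2*, *Map1lc3a*, *Ctsf*, *Atp6v0d1*, *Bcl2l1*, *Gabrg3*, *Sema6c*, *Plxna4*, *Pcdha11*, *Pcdhac2*, *Cspg5*, *Col27a1*, *Hist1h1d*, *Stat2*, *Car8*, *Tfap2b*, *Sorcs3*, *Slc1a3*, *Cldn11* and *Enpp6*. With all 9 RNA libraries: *Gdf1*, *Fam177a*, *Atf6*, *Calr*, *Hsp90aa1*, *Upf3a*, *Ier2*, *Jund*, *Slc12a2*, *Pcdha11*, *Hist3h2ba*, *Tfap2b* and *Alas2*. With protein-coding transcripts alone: *Ears2*, *Calr*, *Hspa1a*, *Eif2d*, *Psmb7*, *Clk3*, *Srsf2*, *Irf7* and *Enpp6*, while *Tssk5*, *Snhg1* and *Snhg12* were not tested there. Without a filter on low counts: *Fam177a*. Without at least 1 of the 6 libraries: *Gtpbp2*, *Gbp10*, *Gm21541*, *Gdf1*, *Fam177a*, *Sparc*, *Mbp*, *Slc7a10*, *Mars2*, *Ears2*, *Atf6*, *Calr*, *Hsp90aa1*, *Hspa1a*, *N4bp2*, *Eif2d*, *Tufm*, *Mrps18b*, *Mrps25*, *Psmb8*, *Psmb7*, *Snhg12*, *Upf3a*, *Tra2b*, *Clk3*, *Srsf2*, *Bcl2l1*, *Ier2*, *Gabrg3*, *Slc12a2*, *Cacna2d1*, *Pcdha11*, *Hist1h1d*, *Hist1h1c*, *Car8*, *Sorcs3*, *Slc1a3*, *Enpp6*, *Slco1a4*, *Alas2* and *Th*. The cause was not tested.

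With the replicate number as a block 2237 genes passed, 938 higher and 1299 lower. Calls of these named genes that ended were those of *Sparc*, *mt-Co1*, *Mbp*, *Ears2*, *Atf6*, *Calr*, *Hsp90aa1*, *Hspa1a*, *Eif2d*, *Mrps18b*, *Psmb7*, *Upf3a*, *Tra2b*, *Clk3*, *Srsf2*, *Bcl2l1*, *Ier2*, *Slc12a2*, *Car8*, *Slc1a3* and *Enpp6*. Samples with the same number did not deviate together over all genes (correlations -0.01, -0.03 and -0.04 for replicates 1, 2 and 3), nor did each sample correlate best with its own number, so the libraries share a number and are not treated as paired. Choroid plexus markers, led by *Ttr*, were an exception in part, being lowest in replicate 3 of both groups.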
